A study of Mus musculus with 53 samples.

Results

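The proteasome is the protease that degrades ubiquitin-tagged proteins. Its transcripts were followed through adult mouse hearts in 2 kinds of RNA, with or without aortic banding and in 2 Cre lines. The members were the genes whose symbols start with Psma, Psmb, Psmc, Psmd, Psme, Psmf or Psmg and end in a number, which gave 48 of the 34306 genes of the deposited table. They comprised 8 genes of the core alpha ring, 7 of the core beta ring, 4 of the immunoproteasome and thymus type (Psmb8 to Psmb11), 9 of the base, 8 of the lid, 3 base assembly chaperones, 4 core assembly chaperones, 4 activators and 1 inhibitor. The symbol pattern fixed the membership, and no measured value entered it.

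TRAP RNA is RNA bound to ribosomes that carry a tag switched on by Cre recombinase, and input RNA is the total cytoplasmic RNA of the heart. In CAG mice the tag was in all lineages, and in Tie2 mice it was in endothelial cells, as labels of the first of 2 deposits describe these lines. Cre driven by Tie2 is also known to be active in blood cell lineages. The operated CAG hearts came from male mice with the ascending aorta tied to a fixed diameter (band) or opened up in the same way without the tie (sham), and each of band TRAP, sham TRAP, band input and sham input had 2 libraries. Hearts without surgery gave 1 library each of Tie2 TRAP, Tie2 input, CAG TRAP and CAG input, with the sex not given. The labels call all mice adult and the RNA pooled, and give no strain for these libraries, while labels of the first deposit give a mixed 129/C57BL background.

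Proteins marked with ubiquitin chains are bound, unfolded and threaded by the regulatory particle into the core. The regulatory particle consists of a base, with its ring of ATPases, and a lid, which holds the enzyme that removes ubiquitin. The core is a barrel of stacked rings, with alpha rings at the ends that gate the entry and beta rings inside that carry the active sites. Under interferon, cells replace the catalytic subunits Psmb5, Psmb6 and Psmb7 by Psmb8, Psmb9 and Psmb10, which makes the immunoproteasome, known for producing peptides for antigen presentation. In heart muscle the proteasome is known as a main route for the turnover of damaged and contractile proteins.

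The 12 libraries held 26568988 to 94878619 reads in genes, and the values are RPKM, reads per kilobase of transcript, scaled by the reads of the library. Mitochondrially encoded genes took 13.7% to 15.9% of these reads in CAG input, 3.17% in Tie2 input and 0.0259% to 0.293% in TRAP libraries. The scaling counts these reads, so TRAP to input ratios depend on it, and the Tie2 and CAG pairs are not scaled alike. The 2 band TRAP libraries stood further apart than those of any other operated group. Across the 46 tested members their median absolute log2 difference was 0.30, against 0.20 over all 11654 genes tested, and 6 members differed by more than 1.5-fold, as did 11.8% of all genes. In the band input, sham TRAP and sham input pairs 0 members differed that much, against 1.56%, 1.72% and 0.935% of all genes. Psma4, a subunit of the alpha ring, was at 114 RPKM in the first and 37.3 RPKM in the second band TRAP library. Psmc6, a base ATPase, was at 26.2 and 4.35 RPKM, and Psme4, a nuclear activator, was at 24.7 and 7.40 RPKM. Low levels of these genes, as in the second library, were also found without surgery, and not in TRAP RNA alone. In CAG TRAP without surgery Psma4 was at 24.7, Psmc6 at 6.11 and Psme4 at 7.39 RPKM. In Tie2 input they were at 33.3, 8.31 and 7.51 RPKM. In Tie2 TRAP they were at 36.4, 9.004 and 2.61 RPKM. CAG input without surgery was higher, at 73.2, 14.4 and 16.5 RPKM. Of 8 endothelial markers the most abundant, Fabp4, was at 1603 and 785 RPKM in the first and second band TRAP library. The other 7 summed to 81.6 and 61.4 RPKM, with Tie1 at 9.85 and 9.92 RPKM. In the same order fibroblast markers summed to 125 and 76.3 RPKM, and smooth muscle and pericyte markers to 163 and 127 RPKM. Macrophage and leukocyte markers summed to 232 and 212 RPKM, erythroid markers to 61.7 and 109 RPKM, and cardiomyocyte markers to 56268 and 56599 RPKM. Among the last, Pln was at 1675 and 811 RPKM and Tnnt2 at 20287 and 23378 RPKM. The part of any of these markers in the differences was not tested. Results in band TRAP RNA are also given without each of these libraries.

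The alpha ring is built from an equal number of each subunit, yet its transcripts spanned a wide range of levels per length. Medians over the 12 libraries ran from 20.3 RPKM for Psma3 to 178 RPKM for Psma6 among the 7 tested alpha genes. RPKM divides by the length of the 1 transcript listed per gene, 2846 bases for Psma3 and 1042 for Psma6. Levels compared between genes, here and below, depend on which transcript was listed. Beta ring genes had medians from 89.8 RPKM for Psmb3 to 243 RPKM for Psmb2. In the base the medians ran from 13.1 RPKM for Psmc6 to 236 RPKM for Psmc3, both ATPases of the same ring, and in the lid from 13.5 RPKM for Psmd14, the ubiquitin-removing enzyme, to 80.0 RPKM for Psmd8. Base assembly chaperones were low, at 3.24 RPKM for Psmd5, 7.89 RPKM for Psmd10 and 8.58 RPKM for Psmd9. Core assembly chaperones ran from 13.9 RPKM for Psmg3 to 184 RPKM for Psmg4, and the inhibitor Psmf1 had a median of 3.93 RPKM. Psma8, the alpha subunit known from testis, reached at most 0.716 RPKM, and Psmb11, the catalytic subunit known from the thymus, at most 0.0456 RPKM or 7 reads. Neither passed the filter of 1 RPKM in at least 2 libraries, so 46 of 48 members were tested.

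**Figure D1:**
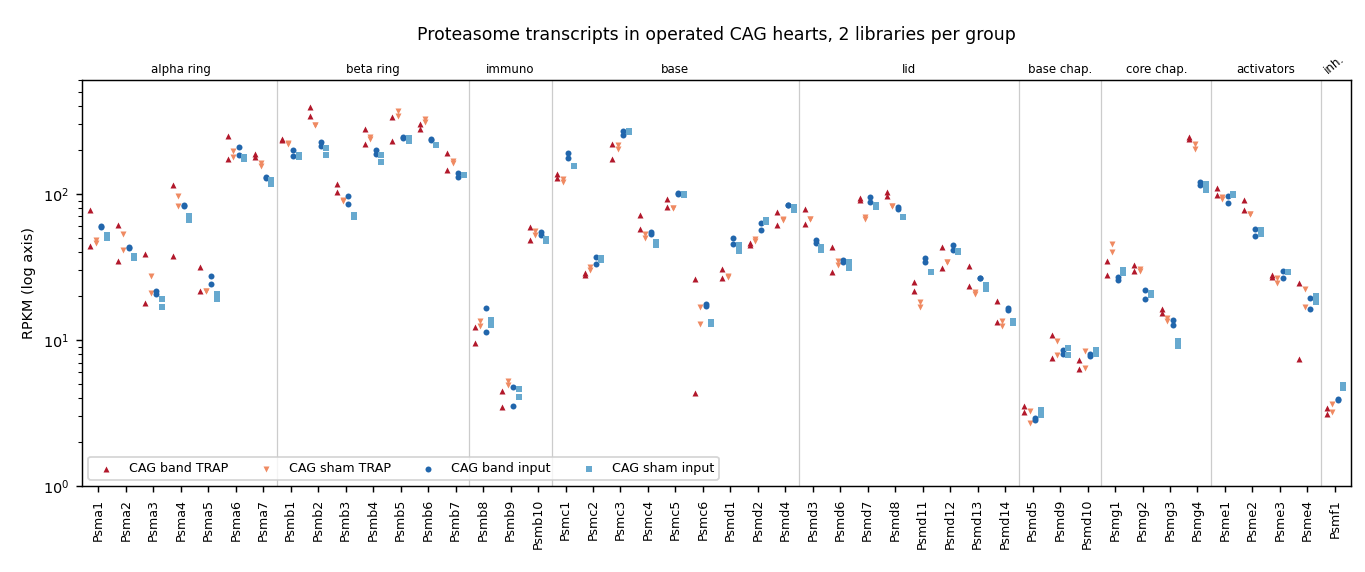
RPKM (log axis) of the 46 tested members in the 8 operated CAG libraries, with genes along the horizontal axis grouped by role and a point for each library. The 2 band TRAP points of Psma4 (114 and 37.3 RPKM), Psmc6 (26.2 and 4.35 RPKM) and Psme4 (24.7 and 7.40 RPKM) lie far apart, while the points of most other members lie close together.

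The first comparison asked which proteasome transcripts differed between TRAP and input RNA of the same kind of heart. Many beta ring and core chaperone transcripts were higher in TRAP than in input RNA, and 4 or 5 of the 9 base transcripts were lower. After banding 9 of the 46 tested members were higher in TRAP (19.6%) and 6 were lower (13%) at an adjusted p under 0.05, against 16.6% higher and 26% lower of all 11654 genes tested, 42.6% in both directions. After sham surgery 14 were higher (30.4%) and 7 lower (15.2%), against 15.1% and 24.5% of all genes, or 39.6% in both directions. The members' median log2 difference was 0.03 after banding and 0.10 after sham, against -0.10 and -0.09 over all genes. The median after banding was -0.14 without the first and 0.25 without the second band TRAP library, and under quantile normalization the members' medians, -0.01 and 0.02, lay below the 0.05 of all genes in both settings. Both TRAP libraries were above both input libraries for 17 members after banding (37%) and 22 after sham (47.8%), against 27.5% and 32.2% of all genes, and below them for 10 (21.7%) and 15 (32.6%), against 41.6% and 46.9%. All 9 members called higher after banding were among the 14 called higher after sham, and 4 of the 6 called lower after banding (66.7%) were among the 7 called lower after sham (57.1%).

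These counts rested on the libraries used and on the scaling. After banding 26 members (56.5%) were called without the first and 30 (65.2%) without the second band TRAP library, against 53.8% and 46.7% of all genes in the same fits, and 9 (19.6%) without the first band input library, against 23.8%. After sham 29 (63.0%) were called without either band TRAP library, against 54.8% of all genes each time. Without the first and second sham TRAP library 9 and 10 were called after sham (19.6% and 21.7%), against 19.2% and 19.7% of all genes, and without the first and second sham input library 6 and 10 (13.0% and 21.7%), against 16.4% and 19.5%. Without the first and without the second band TRAP library 19 members were called both times after banding. Of these, 15 had the same direction and were the 15 called with all libraries. The other 4 were Psma1, Psma4, Psmc6 and Psmd6, each lower without the first and higher without the second library. With quantile normalization 6 members were higher and 8 lower after banding, and 6 higher and 10 lower after sham, and the median log2 difference of all genes after sham was 0.05 in place of -0.09. With the scaling done without mitochondrial, haemoglobin and the 50 most abundant genes, which put that median at -0.18, the counts were 6 and 9 after banding and 8 and 11 after sham. The members' medians were then -0.12 after banding and -0.02 after sham, against -0.21 and -0.18 over all genes. The shares of all genes called under these scalings are not given here. Counts of members under them, also by role, are therefore not set against all genes.

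Beta ring transcripts made up 3 of the 9 members higher in TRAP after banding and 6 of the 14 after sham. That is 3 of 7 and 6 of 7 of the ring, with median log2 differences of 0.30 after banding and 0.45 after sham. Under quantile normalization 1 of 7 was called after banding and 2 of 7 after sham, all higher. Psmb2, a beta subunit without an active site, was at 395 and 343 RPKM in band TRAP, against 227 and 214 RPKM in band input. In sham TRAP it was at 295 and 296 RPKM, against 184 and 206 RPKM in sham input. The groups did not overlap on either side, and the log2 difference was 0.74 (SE 0.10, adjusted p = 0.00187, limma) after banding and 0.60 (SE 0.10, adjusted p = 0.00464) after sham.

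Psmb6, the subunit with caspase-like activity, was at 276 and 302 RPKM in band TRAP, against 238 and 232 RPKM in band input. It was at 310 and 323 RPKM in sham TRAP, against 214 and 217 RPKM in sham input, a log2 difference of 0.55 (SE 0.08, adjusted p = 0.00272, limma). Psmb5, the subunit with chymotrypsin-like activity and the main target of proteasome inhibitors, was at 231 and 338 RPKM in band TRAP, against 242 and 243 RPKM in band input, so that the groups overlapped. In sham TRAP it was at 369 and 342 RPKM, against 228 and 239 RPKM in sham input, and passed at 0.60 (SE 0.16, adjusted p = 0.0257). Psmb7, the subunit with trypsin-like activity, was at 191 and 145 RPKM in band TRAP, against 139 and 130 RPKM in band input. It was at 167 and 162 RPKM in sham TRAP, against 135 and 135 RPKM in sham input, and passed in neither setting.

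In the alpha ring 1 of 7 tested genes was called in each setting. This was Psma7, at 188 and 179 RPKM in band TRAP against 130 and 128 RPKM in band input, and 162 and 155 RPKM in sham TRAP against 117 and 123 RPKM in sham input. Its log2 difference was 0.51 (SE 0.08, adjusted p = 0.00265, limma) after banding and 0.40 (SE 0.08, adjusted p = 0.00760) after sham. Under quantile normalization it passed after banding and not after sham.

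Core assembly chaperones were higher in TRAP, 2 of 4 after banding and 4 of 4 after sham, with median log2 differences of 0.40 and 0.52. These proteins, Psmg1 with Psmg2 and Psmg3 with Psmg4, hold alpha subunits while the ring forms and are not part of the finished proteasome. Psmg4 had the largest difference of all members in both settings. It was at 246 and 237 RPKM in band TRAP, against 115 and 121 RPKM in band input, and 219 and 203 RPKM in sham TRAP, against 106 and 116 RPKM in sham input. No library of one fraction reached the range of the other, and the log2 difference was 1.02 (SE 0.09, adjusted p = 0.000392, limma) after banding and 0.92 (SE 0.09, adjusted p = 0.000702) after sham. Psmg2 was at 32.8 and 29.5 RPKM in band TRAP, against 22.1 and 19.2 RPKM in band input, and 29.6 and 30.6 RPKM in sham TRAP, against 20.2 and 20.9 RPKM in sham input. Under quantile normalization 2 of 4 core chaperones were called after banding and 3 of 4 after sham, all higher.

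Base genes passed on the lower side and never on the higher side. Of the 9, 5 were lower after banding (Psmc1, Psmc2, Psmc3, Psmd1 and Psmd2), with a median log2 difference of -0.39 over the base, and 4 were lower after sham (Psmc1, Psmc5, Psmd1 and Psmd2), with a median of -0.30. Under quantile normalization 7 of 9 were lower in each setting. Psmd1, the large scaffold of the base, was at 30.5 and 26.5 RPKM in band TRAP, against 49.6 and 45.5 RPKM in band input. It was at 27.6 and 27.1 RPKM in sham TRAP, against 40.5 and 44.5 RPKM in sham input. The TRAP libraries were lower in every case, and the log2 difference was -0.72 (SE 0.10, adjusted p = 0.00201, limma) after banding and -0.62 (SE 0.10, adjusted p = 0.00418) after sham. Psmc6 was among the 8 members with the largest difference after banding, at -0.61, with its 26.2 and 4.35 RPKM in band TRAP on either side of the 17.7 and 17.1 RPKM in band input (adjusted p = 0.471, limma).

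Lid genes passed on both sides. Psmd3, a scaffold subunit of the lid, was at 62.4 and 78.8 RPKM in band TRAP, against 46.4 and 48.0 RPKM in band input, and 67.3 and 67.3 RPKM in sham TRAP, against 43.3 and 41.0 RPKM in sham input. Psmd8, a lid subunit, passed on the same side with log2 differences of 0.32 after banding and 0.25 after sham. Psmd11, another lid subunit, went the other way, at 24.8 and 21.8 RPKM in band TRAP against 36.2 and 34.1 RPKM in band input, and 16.9 and 18.3 RPKM in sham TRAP against 29.3 and 29.3 RPKM in sham input. For Psmd11 the log2 difference was -0.58 (SE 0.09, adjusted p = 0.00351, limma) after banding and -0.71 (SE 0.09, adjusted p = 0.00208) after sham. Psmd7 was lower after sham, by -0.28, and its log2 difference after banding was 0.00.

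Among the regulators, Psme2, a subunit of the interferon-inducible activator, was at 91.5 and 77.2 RPKM in band TRAP, against 57.6 and 51.7 RPKM in band input, and 73.1 and 72.3 RPKM in sham TRAP, against 53.2 and 56.9 RPKM in sham input. The log2 difference was 0.61 (SE 0.11, adjusted p = 0.00445, limma) after banding and 0.40 (SE 0.11, adjusted p = 0.0245) after sham. A processed copy of it, Psme2b-ps, is listed at 55.8 to 138 RPKM, and reads could be divided between the pair, so the level of Psme2 is uncertain. Psme1, its partner in the activator, did not pass in either setting. The inhibitor Psmf1 was lower after sham, by -0.38 (SE 0.09, adjusted p = 0.0156), and stood at -0.20 after banding without passing.

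**Figure D2:**
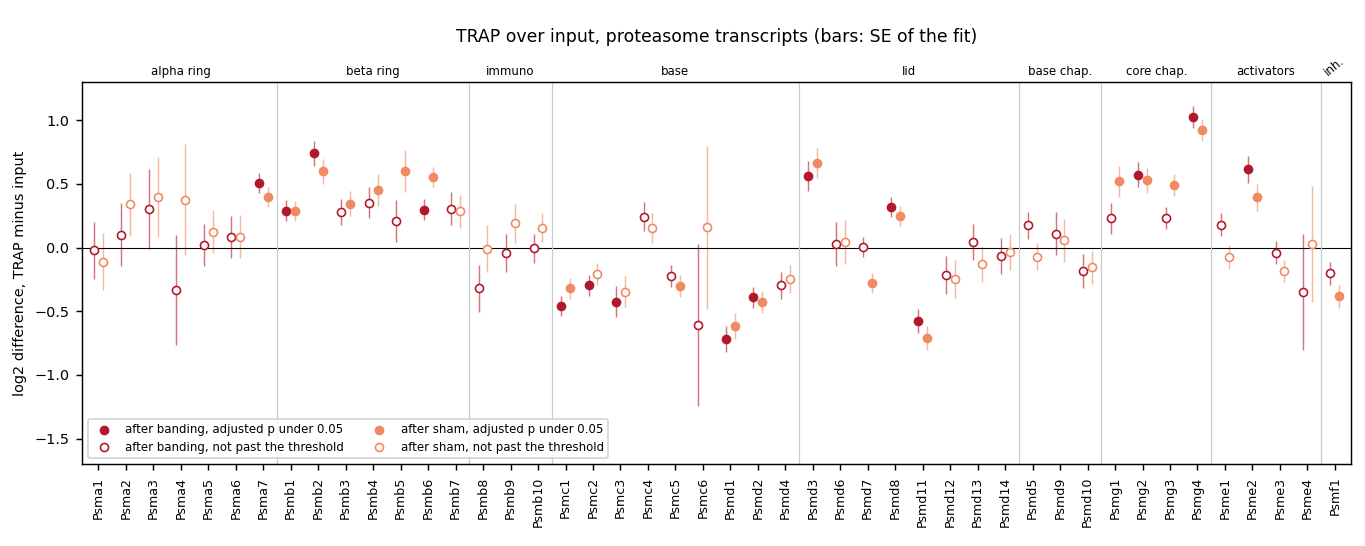
Log2 difference, TRAP minus input, of each of the 46 tested members, grouped by role, after banding and after sham; points are estimates of the fit, bars their SE, and filled points passed an adjusted p under 0.05. Beta ring and core chaperone genes lie above 0, up to 1.02 for Psmg4, and 8 of the 9 base genes lie below 0 after banding.

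Shorter transcripts had higher TRAP to input ratios among these genes. Across the 46 members, log2 transcript length and the log2 difference had a Pearson r of -0.54 after banding and -0.56 after sham (Spearman rho -0.52 and -0.59), as a description, since members share libraries and lengths go with roles. The median length was 941.5 bases for core chaperones, 1036 for the beta ring, 1377 for the alpha ring, 1777 for the lid and 2120 for the base. Genes outside the family within the members' middle range of length, 1196.5 to 2665 bases, had median log2 differences of 0.03 after banding and 0.04 after sham. With the trend of the ratio over length removed from all genes, 6 members were called higher and 6 lower in each setting. The share of all genes called in that fit is not given here. In that fit 1 of 7 beta ring genes after banding and 2 of 7 after sham were higher, as were 2 of 4 core chaperones in each setting, while 5 of 9 base genes after banding and 4 of 9 after sham were lower. Markers of several cell types also differed between the fractions. All 5 erythroid marker genes were lower in TRAP, with summed levels of 61.7 and 109 RPKM in band TRAP, 204 and 206 RPKM in sham TRAP, 1535 and 1938 RPKM in band input, and 2555 and 2486 RPKM in sham input. Of 7 macrophage and leukocyte markers 7 were lower after banding and 6 after sham, and of 6 fibroblast markers 4 and 5. Of 5 smooth muscle and pericyte markers 4 were lower in each setting. Of 8 cardiomyocyte markers 3 were lower in each setting, while 2 were higher after banding and 1 after sham. Of 8 endothelial markers 0 were called in either setting. Among all genes tested, 26% were lower after banding and 24.5% after sham. The 8 macrophage and leukocyte markers in the table summed to 232 and 212 RPKM in band TRAP against 514 and 419 RPKM in band input, and to 215 and 220 RPKM in sham TRAP against 384 and 385 RPKM in sham input. The 6 fibroblast markers summed to 125 and 76.3 RPKM in band TRAP against 221 and 203 RPKM in band input, and to 102 and 110 RPKM in sham TRAP against 234 and 227 RPKM in sham input. Their part in the proteasome differences was not tested, and in bulk RNA fewer cells of a type and less RNA per cell cannot be told apart.

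**Figure D3:**
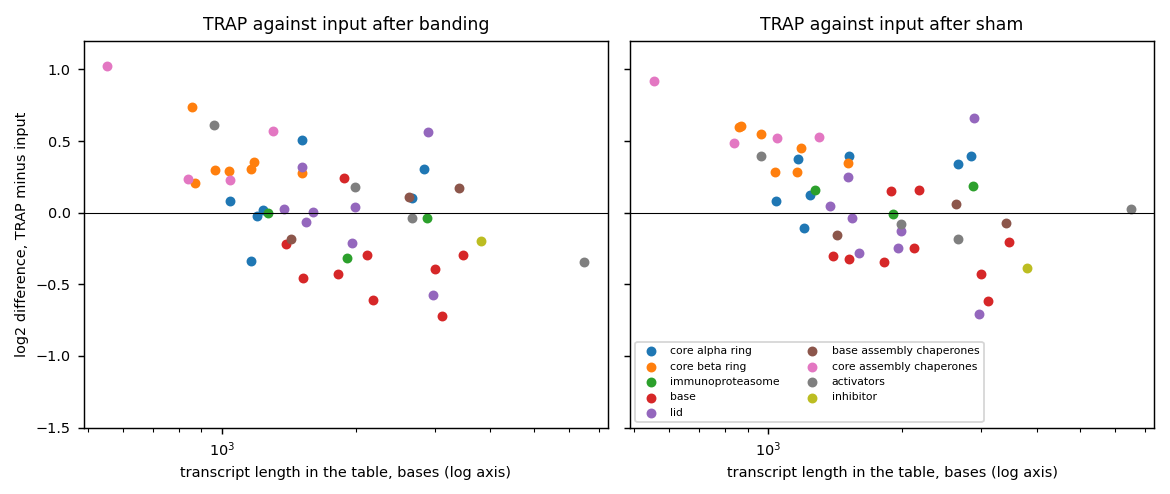
Log2 difference, TRAP minus input, against transcript length in bases (log axis) for the 46 tested members, after banding on the left and after sham on the right, with colours for roles. Core chaperone and beta ring genes, with median lengths of 941.5 and 1036 bases, sit at the upper left, and base genes, with a median of 2120 bases, sit lower and to the right.

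Aortic banding was compared with sham surgery in each fraction. In input RNA most transcripts of the core and all of the lid stood slightly higher in both band libraries, and 1 single difference passed. Of the 46 tested members 1 was called higher (2.17%) and 0 lower, against 2.44% higher and 1.65% lower of all genes tested, 4.08% in all. At an unadjusted p under 0.05 there were 6 of the 46 members and 2253 of the 11654 genes tested. The median log2 difference was 0.10 over the members and -0.01 over all genes. Both band input libraries were above both sham input libraries for 27 members (58.7%) and below them for 5 (10.9%), while 28.7% and 31.1% of all genes separated in these ways. All 7 tested alpha ring genes and all 8 lid genes separated upward, with median log2 differences of 0.22 and 0.18, and both sets stayed above 0 in all their members under quantile normalization and under the scaling without the most abundant genes. These members share the same 4 libraries and are not independent of one another.

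The called member was Psmg3, a core assembly chaperone. It was at 12.7 and 13.7 RPKM in band input, against 9.15 and 9.85 RPKM in sham input, with means of 13.2 ± 0.711 and 9.50 ± 0.496 RPKM (SD, n = 2 each). The pairs did not overlap, and the log2 difference was 0.44 (SE 0.09, adjusted p = 0.0407, limma). It no longer passed without any 1 of the 6 libraries of band input, sham input and sham TRAP, at adjusted p from 0.103 to 0.293, nor with the replicate number as a block (adjusted p = 0.0768). The other core chaperones did not pass. Psmb3, a beta subunit without an active site, was at 96.7 and 85.3 RPKM in band input against 69.1 and 72.0 RPKM in sham input (log2 difference 0.36, SE 0.10, adjusted p = 0.105). Without either band TRAP library 5 members (10.9%) were called higher in input RNA and 0 lower. Of all genes, 6.66% and 6.62% were called higher without the first and the second library, and 6.31% and 6.26% lower. The 5 members were the same in both cases, Psma5, Psmb3, Psmc1, Psmd14 and Psmg3. The immunoproteasome genes, the activators and the base chaperones had 0 members called. In the same input libraries 2 of 7 macrophage and leukocyte markers were higher after banding, with summed levels of 514 and 419 RPKM in band input against 384 and 385 RPKM in sham input. The erythroid gene Hbb-b2 was lower, as 1 of 5 such markers, with summed levels of 1535 and 1938 RPKM in band input against 2555 and 2486 RPKM in sham input. The smooth muscle marker Tagln, the fibroblast marker Col1a1 and the cardiomyocyte marker Actc1 were higher, each as the 1 called of its list. The part of these markers was not tested.

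In TRAP RNA the lid was again mostly on the higher side after banding. Of 46 members 1 was called higher (2.17%) and 0 lower, against 2.21% and 1.56% of all genes tested, 3.77% in all. An unadjusted p under 0.05 was reached by 9 of the 46 members and by 2295 of the 11654 genes tested. The median log2 difference was 0.08 over the members and -0.01 over all genes. The libraries separated upward for 16 members (34.8%) and downward for 7 (15.2%), against 21.9% and 22.4% of all genes. The lid had a median of 0.26 with all 8 genes above 0, also under both other scalings, and 4 of its genes separated upward. Without the first band TRAP library 6 of 8 were above 0 (median 0.18), and without the second 7 of 8 (median 0.38). The called member was Psmd7, the lid subunit that pairs with the ubiquitin-removing Psmd14. It was at 90.6 and 93.1 RPKM in band TRAP, against 67.004 and 69.6 RPKM in sham TRAP, with means of 91.8 ± 1.74 and 68.3 ± 1.85 RPKM (SD, n = 2 each). Its log2 difference was 0.42 (SE 0.08, adjusted p = 0.0363, limma), and in input RNA it was 0.14 and did not pass. The call was lost without any 1 of the 6 libraries other than band TRAP, at adjusted p from 0.0702 to 0.250, and with the replicate block (adjusted p = 0.0769). In the same libraries 3 of 5 erythroid markers were lower after banding, with summed levels of 61.7 and 109 RPKM in band TRAP against 204 and 206 RPKM in sham TRAP, and 1 of 8 cardiomyocyte markers, Actc1, was higher. Their part was not tested.

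Without the first band TRAP library 6 members (13.0%) were called between band and sham TRAP RNA, against 14.3% of all genes, 3 higher (Psmc4, Psmd7 and Psmd8) and 3 lower (Psma4, Psmc6 and Psme4). Without the second 16 (34.8%) were called, against 16.9% of all genes, 14 higher and 2 lower. The higher ones were Psma1, Psma3, Psma5, Psma6, Psmb2, Psmb3, Psmc6, Psmd6, Psmd7, Psmd11, Psmd12, Psmd13, Psmd14 and Psme2, and the lower ones Psmb5 and Psmg1. Psmd7 was the 1 member called in the same direction both times, and Psmc6 was called in opposite directions, at -1.56 and 0.79 on the log2 scale. Psmg1, a core chaperone, was at 28.0 and 34.9 RPKM in band TRAP, against 40.1 and 45.4 RPKM in sham TRAP, with a log2 difference of -0.44 (SE 0.12, adjusted p = 0.106, limma).

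**Figure D4:**
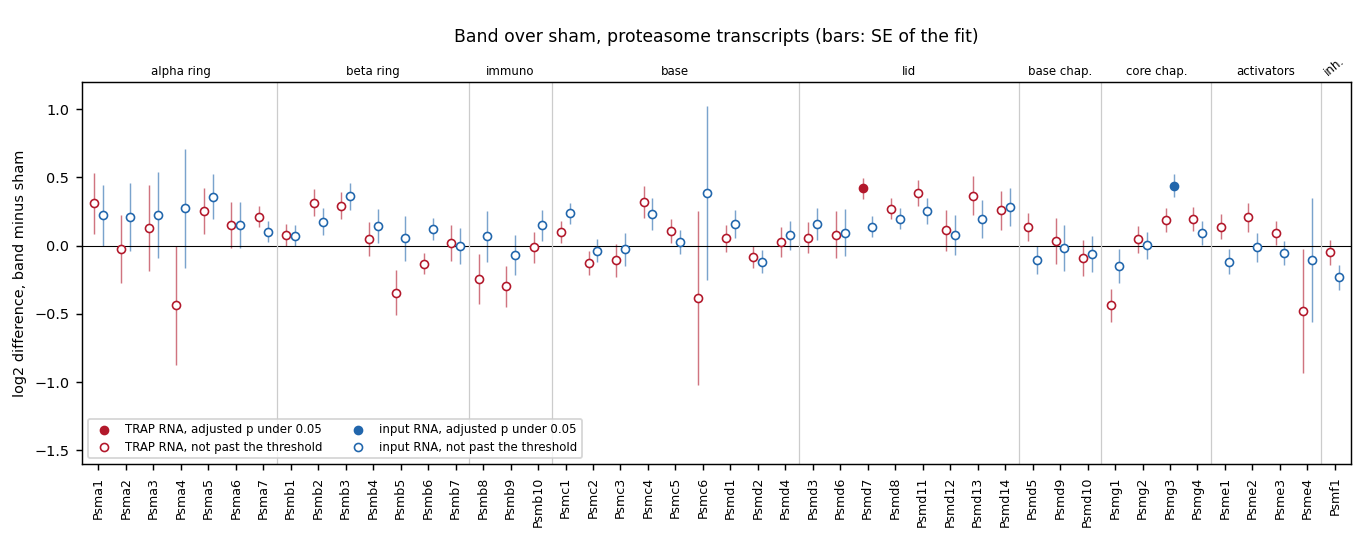
Log2 difference, band minus sham, of each of the 46 tested members in TRAP RNA and in input RNA, grouped by role; points are estimates of the fit, bars their SE, and filled points passed an adjusted p under 0.05. The filled points are Psmd7 in TRAP RNA (0.42) and Psmg3 in input RNA (0.44), and the wide bars belong to genes such as Psmc6 whose band TRAP libraries differ.

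Whether banding altered the ratio between TRAP and input RNA was tested as an interaction. 0 of 46 members and 0 of 11654 genes (0%) passed with limma, the only tool run, the smallest adjusted p over all genes being 0.151. At an unadjusted p under 0.05 there were 1 member and 557 genes. The largest estimates on the log2 scale were those of Psmc6 (-0.77), Psma4 (-0.71), Psmb5 (-0.40, SE 0.23) and Psme4 (-0.37). Psmb8 (-0.31, SE 0.26), Psmg1 (-0.29), Psmd7 (0.28, SE 0.11) and Psmb6 (-0.25, SE 0.11) completed the 8 largest. Of the other catalytic genes, Psmb9 and Psmb10 were below 0 and Psmb7 above 0. Without the first band TRAP library 2 members passed (Psma4 and Psmc6, both negative), as did 1.69% of all genes, and without the second 1 passed (Psmb5, at -0.67), as did 0.669% of all genes.

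The Tie2 TRAP library showed Psmb8, Psmb9 and, by less, Psmb10 at levels not seen in any other library. It is a single library and no test was run, and folds are on the RPKM + 1 scale. Psmb8 was at 140 RPKM in Tie2 TRAP, against 14.4 RPKM in Tie2 input, and ran from 9.56 to 16.7 RPKM over the other 11 libraries. Psmb9 was at 55.3 RPKM in Tie2 TRAP, against 6.41 RPKM in Tie2 input and 3.48 to 7.44 RPKM elsewhere. Psmb10 was at 100 RPKM in Tie2 TRAP, against 59.4 RPKM in Tie2 input and 47.3 to 70.6 RPKM elsewhere. These are 9.11-fold, 7.60-fold and 1.68-fold more in Tie2 TRAP than in Tie2 input, and 9.30-fold, 6.67-fold and 1.41-fold more than in CAG TRAP without surgery. For Psmb10 the log2 differences were 0.75 and 0.50, beside medians of 0.48 and 0.85 over all genes. Past 1.5-fold higher were 46.1% of all genes against Tie2 input and 58.8% against CAG TRAP. The values rest on 10306 reads for Psmb8, 6179 for Psmb9 and 4931 for Psmb10 in Tie2 TRAP.

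The constitutive partners were not higher there. Psmb5 was at 166 RPKM in Tie2 TRAP, against 264 RPKM in Tie2 input, and Psmb6 was at 193 RPKM, against 245 RPKM. Psmb7 was at 87.1 RPKM in Tie2 TRAP, against 125 RPKM in Tie2 input, below the 109 to 191 RPKM of the other libraries. The ratio of Psmb8 to Psmb5 was 0.843 in Tie2 TRAP and 0.0283 to 0.0736 in the other 11 libraries. The ratio of Psmb9 to Psmb6 was 0.286 in Tie2 TRAP and 0.0115 to 0.0336 elsewhere, and that of Psmb10 to Psmb7 was 1.15 in Tie2 TRAP and 0.251 to 0.603 elsewhere. Psmb8, Psmb9 and Psmb10 made up 39.8% of the summed RPKM of the 6 catalytic genes in Tie2 TRAP and 7.70% to 14.0% in the others. These are levels of RNA per length and say nothing of the amounts of protein.

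In the operated hearts Psmb8 and Psmb9 stayed low, and Psmb10 was at 47.3 to 59.4 RPKM. Psmb8 was at 12.3 and 9.56 RPKM in band TRAP, against 13.6 and 12.4 RPKM in sham TRAP, and at 16.7 and 11.3 RPKM in band input, against 13.6 and 12.6 RPKM in sham input. Psmb9 was at 4.51 and 3.48 RPKM in band TRAP, against 4.94 and 5.27 RPKM in sham TRAP, and at 4.74 and 3.55 RPKM in band input, against 4.65 and 4.07 RPKM in sham input. Psmb10 was at 48.0 and 59.4 RPKM in band TRAP, against 52.1 and 55.6 RPKM in sham TRAP, and at 55.2 and 52.1 RPKM in band input, against 49.2 and 47.3 RPKM in sham input. None of these differences passed the test.

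**Figure D5:**
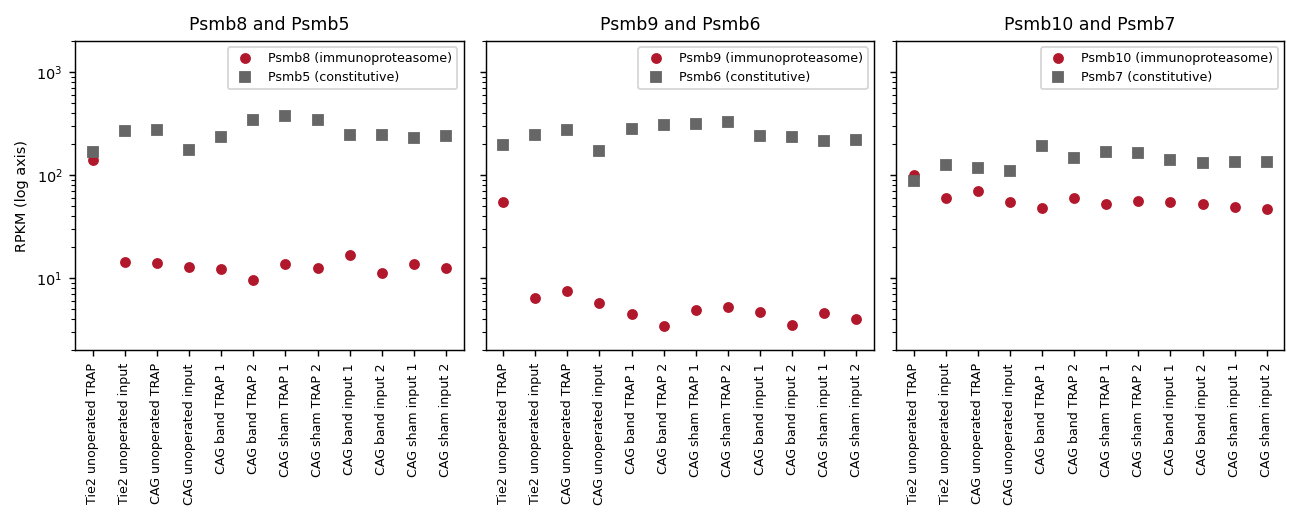
RPKM (log axis) of each immunoproteasome gene and its constitutive partner in each of the 12 libraries, 1 point per library. Psmb8 and Psmb9 are at 140 and 55.3 RPKM in the Tie2 TRAP library at the left and lie between 3.48 and 16.7 RPKM in all others.

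The whole family did not follow Psmb8 and Psmb9. Past 1.5-fold, 6 of 46 members were higher and 11 lower in Tie2 TRAP than in Tie2 input, against 46.1% and 19.6% of all genes kept, and the median log2 difference was -0.07 over the members and 0.48 over all genes. The other members past that fold on the higher side were Psmd5, a base chaperone, at 10.7 RPKM in Tie2 TRAP against 3.48 RPKM in Tie2 input, Psme2 at 99.9 against 60.9 RPKM, and Psmb1 at 318 against 198 RPKM. On the lower side Psmc3 was at 95.1 RPKM in Tie2 TRAP against 318 RPKM in Tie2 input, 3.32-fold less. Psmd12, a lid subunit, was at 14.99 against 41.2 RPKM, Psma6 at 88.3 against 216 RPKM, Psme4 at 2.61 against 7.51 RPKM, and Psmc2 at 22.1 against 44.2 RPKM. The base was lowest as a group, with 5 of 9 genes past the fold on the lower side and a median log2 difference of -0.74.

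Against CAG TRAP without surgery, 7 of 46 members were higher and 7 lower in Tie2 TRAP past 1.5-fold, compared with 58.8% and 16.4% of all genes, with medians of 0.26 and 0.85. After Psmb8 and Psmb9 the largest were Psmd5, at 10.7 RPKM in Tie2 TRAP against 2.40 RPKM in CAG TRAP, and the inhibitor Psmf1, at 8.33 against 2.72 RPKM. Psmd9, another base chaperone, was at 15.6 against 7.15 RPKM. Psme4 was at 2.61 RPKM in Tie2 TRAP against 7.39 RPKM in CAG TRAP, Psmg1 at 22.6 against 47.3 RPKM, and Psmc3 at 95.1 against 192 RPKM.

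Markers of other cell types differed as well. All 8 endothelial markers were more than 1.5-fold higher in Tie2 TRAP than in Tie2 input, with a summed level of 12169 against 1317 RPKM, or 1409 against 98.1 RPKM without the most abundant, Fabp4, and all 8 cardiomyocyte markers were lower, at 3141 against 63441 RPKM. The 7 macrophage and leukocyte markers that passed the filter were also higher, at a summed 2680 against 335 RPKM over the 8 in the table, while of the 4 T and B cell markers Cd79a was at 4.98 RPKM in Tie2 TRAP against 1.05 RPKM in Tie2 input and the other 3 were under 1 RPKM in both. Of 6 fibroblast markers 4 were higher past that fold, at a summed 558 against 204 RPKM. Of 5 erythroid markers 5 were lower, at 611 against 2565 RPKM, and of 5 smooth muscle and pericyte markers 3, at 171 against 305 RPKM. No marker in any of these lists was at 0 in Tie2 TRAP. Of 22 interferon and antigen processing genes 21 were more than 1.5-fold higher, with a median log2 difference of 2.12, and 1, the interferon receptor subunit Ifngr2, was lower. The part of these cell types in the levels of Psmb8 and Psmb9 was not tested.

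In hearts without surgery the CAG pair gave the TRAP to input difference from other libraries, with 1 on each side and no test. Past 1.5-fold, 4 of 46 members were higher and 8 lower in TRAP, against 6.8% and 24.8% of all genes, with medians of -0.25 and -0.26. The higher ones were the core chaperones Psmg1 (47.3 RPKM in CAG TRAP against 25.9 RPKM in CAG input) and Psmg4 (235 against 131 RPKM), and the catalytic Psmb6 (273 against 171 RPKM) and Psmb5 (275 against 175 RPKM). Lower were Psma4 (24.7 against 73.2 RPKM), Psmd11 (12.5 against 30.8 RPKM), Psmd1 (19.0 against 43.1 RPKM), Psmc6 (6.11 against 14.4 RPKM), Psme4 (7.39 against 16.5 RPKM) and Psmd6 (17.9 against 31.7 RPKM), with Psma1 and Psmd14 just past the fold.

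Promoters were read for short motifs of factors known to act on proteasome genes, since the constitutive and the interferon-inducible catalytic genes differed in Tie2 TRAP. RefSeq promoter windows (GRCm38.p6, a later build than that of the deposited table) were held for 40 of the 48 members, with none for Psma8, Psmb1, Psmb2, Psmb7, Psmc3, Psmd3, Psmd7 and Psmg2. The 250 bases before the transcript start were searched on both strands. The core of the antioxidant element bound by the Nfe2l1 factor, which restores proteasome gene expression when proteasomes are blocked (letters TGACNNNGC), was in 5 of 40 members (12.5%) and 11.5% of all genes with a window. Those members were Psmb5, Psmb6, Psmc6, Psmd9 and Psmd12. The interferon-gamma activated site (TTCNNNGAA, the same on both strands) was in Psmb8 and Psmg1, 5.0% of the members, and in 8.13% of all genes. The core of the interferon-stimulated response element (GAAA and again GAAA after 2 bases) was in Psmb3, Psmd4 and Psmd9, 7.5% against 3.46%, and the CCAAT box (CCAAT) in 14 members, 35.0% against 37.5%. The 4 motifs do not overlap in the stretches shown. The 150 bases before the start of the inducible genes Psmb8 (chr17:34198045-34198194, plus strand) and Psmb9 (chr17:34187331-34187480, minus strand) and of the constitutive Psmb5 (chr14:54617996-54618145, minus strand) and Psmb6 (chr11:70525207-70525356, plus strand) are printed 5′ to 3′ for comparison. Capitals mark the activated site in Psmb8, a CCAAT box read on the other strand in Psmb9, and the antioxidant element core in Psmb5 and Psmb6. A match of letters is a description of the sequence, with no measurement of binding.
Psmb8: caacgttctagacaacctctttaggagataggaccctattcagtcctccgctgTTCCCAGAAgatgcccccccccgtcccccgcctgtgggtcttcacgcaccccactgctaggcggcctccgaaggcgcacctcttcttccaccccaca
Psmb9: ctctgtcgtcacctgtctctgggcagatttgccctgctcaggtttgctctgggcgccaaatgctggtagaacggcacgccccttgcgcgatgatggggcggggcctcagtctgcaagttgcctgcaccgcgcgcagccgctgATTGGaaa
Psmb5: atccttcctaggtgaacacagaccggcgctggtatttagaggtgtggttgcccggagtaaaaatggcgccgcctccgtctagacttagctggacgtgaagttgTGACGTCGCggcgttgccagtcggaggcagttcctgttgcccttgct
Psmb6: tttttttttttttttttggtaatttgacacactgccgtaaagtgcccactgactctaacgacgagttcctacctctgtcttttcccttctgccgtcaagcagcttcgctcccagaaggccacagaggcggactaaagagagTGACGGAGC

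Genes that work with the proteasome but are not named for it were counted as a list. Of 32 partner symbols listed, some of them alternative names of the same gene, 29 were in the table and all of these were tested. Between band and sham 0 passed in TRAP RNA and 0 in input RNA, with median log2 differences of -0.01 and 0.01. Between TRAP and input RNA, 4 were higher and 7 lower after banding (13.8% and 24.1%, against 16.6% and 26% of all genes), and 5 higher and 9 lower after sham (17.2% and 31.0%, against 15.1% and 24.5%), with medians of -0.16 and -0.13. Shfm1, a small lid subunit under another name, was at 3057 and 3091 RPKM in band TRAP, against 1711 and 1584 RPKM in band input, and 3487 and 2847 RPKM in sham TRAP, against 1733 and 1800 RPKM in sham input. Its log2 difference was 0.90 (adjusted p = 0.00129, limma) after banding and 0.83 (adjusted p = 0.00213) after sham. Pomp, the maturation factor of the core, was also higher, at 355 and 384 RPKM in band TRAP against 267 and 249 RPKM in band input, and 353 and 313 RPKM in sham TRAP against 255 and 275 RPKM in sham input. On the lower side was the shuttle factor Ubqln1 (-0.59 after banding and -0.72 after sham), with an adjusted p under 0.05 in both settings. Ddi2, the protease that activates Nfe2l1, was lower too (-0.70 and -0.86), at 0.739 to 1.21 RPKM in the TRAP libraries. Of the 22 interferon and antigen processing genes tested, 0 passed between band and sham in TRAP RNA, and 1, Ifngr2, was lower in band input.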

How the data were processed

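RNA sequencing of 12 libraries was analysed. The authors deposited RPKM values for 34306 genes, each with 1 transcript and its length. The submitters' processing notes name CASAVA 1.8.2, TopHat 1.4, HTSeq 0.5.3 and the build NCBIM37, with no order or settings. Per the labels' protocols, pooled RNA was selected for poly(A), primed with random hexamers and made into libraries that do not mark strand, so reads of overlapping and antisense genes cannot be separated. RPKM times length gave whole reads for 229796 of 229796 positive values checked (tolerance 0.02 reads), which gave the depth of each library, 26568988 to 94878619 reads. Intervals from reads would cover counting error only, and none were used. The table holds 0 columns of other samples. The series lists 53 samples, 29 in a first and 24 in a later deposit. The table's columns match the conditions of the later one, although some column names alone would also fit the first. Titles of the later deposit end in l1 or l2, a suffix that no source used here explains. Samples of the first deposit were not analysed here.

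From the RPKM values, log2(RPKM + 1) was fitted with limma 3.58.1 in R 4.3.3 (moderated, variance trend, two-sided) in 1 model of group means over the 12 libraries, for 11654 genes that reached 1 RPKM in 2 libraries or more. The fit had 4 residual degrees of freedom and a prior of 3.02. p-values were adjusted by the Benjamini-Hochberg method over all genes tested, with calls made at an adjusted p under 0.05. The pseudocount of 1 understates changes of genes near or below 1 RPKM. The code was tested on simulated data. Nothing in the labels says that libraries of a group came from separate animals, so p-values reflect the spread among these libraries alone, which may be technical. Comparisons with 1 library a side were not tested, and a fold of 1.5 was used to count genes.

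Members were all rows that match the symbol pattern. Values by library were given for the 6 catalytic genes, for members called between band and sham, and for the 8 members with the largest absolute log2 difference in each other comparison, and any other detected member could be named. Values by library for Psma7, Psmb3 and Psmb1 were added after they were seen. Of the lists, called genes were named, at most 8 by size, and the uncalled genes and markers that are named were chosen after their values were seen. The members, lists, rules and tests were chosen with earlier results of these data known. Alternatives were other pseudocounts, filters and scalings, removal of a length trend, the operated libraries alone, a replicate block and leaving out each library. Promoter sequences came from RefSeq windows on GRCm38.p6, read with Python 3.11.15, and no coordinate of the deposited table was used.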

Additional observations from a re-analysis of the deposited data

Results flagged for a closer look

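Psmb5 and Psmg1 differed in opposite directions between TRAP and input RNA in the Tie2 and the CAG pair without surgery. Psmb5 was at 166 RPKM in Tie2 TRAP against 264 RPKM in Tie2 input, a fold of 0.627 on the RPKM + 1 scale, and at 275 RPKM in CAG TRAP against 175 RPKM in CAG input, a fold of 1.57. Psmg1 was at 22.6 RPKM in Tie2 TRAP against 37.2 RPKM in Tie2 input, a fold of 0.618, and at 47.3 RPKM in CAG TRAP against 25.9 RPKM in CAG input, a fold of 1.798. Each side had 1 library, and the difference between the lines was not tested.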

How the results depend on the processing

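The count of called members kept within 1.5 times its value under the other pseudocount, both other filters, both other scalings and the operated libraries alone, in all 5 tests, and no difference called with all libraries changed sign under any alternative. Of members not called with all libraries, 4 were called in opposite directions between TRAP and input after banding without 1 or the other band TRAP library, as was 1, Psmc6, between band and sham in TRAP RNA. With the length trend removed, 2 members were called between band and sham in TRAP RNA, and 12 between TRAP and input after sham. Leaving out 1 library at a time gave 0 to 16 called members between band and sham in TRAP RNA, 0 to 5 in input RNA, 9 to 30 between TRAP and input after banding, 6 to 29 after sham, and 0 to 2 for the change of the ratio with banding. Where this left a group with 1 library, that library was assumed to vary like the other groups. The cause of these changes was not tested. With 2 libraries a group, small differences of single members could not be told from the spread between libraries.

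Libraries of the groups share replicate numbers. With the number as a replicate block, 0 members were called between band and sham in TRAP RNA and 0 in input RNA, 15 between TRAP and input after banding, 20 after sham and 0 for the change of the ratio. Same-numbered libraries did not deviate together throughout, with correlations of 0.03 between band TRAP and band input, -0.17 between sham TRAP and sham input, -0.43 between band TRAP and sham TRAP, -0.05 between band input and sham input, 0.10 between band TRAP and sham input and 0.11 between band input and sham TRAP, so the numbers do not show a pairing. With the sham TRAP numbers exchanged, an alternative chosen after seeing the data, the block gave 0 members between band and sham in TRAP RNA, 0 in input RNA, 16 between TRAP and input after banding and 21 after sham.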

Other observations

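The spread between the band TRAP libraries was shared by genes that work with the proteasome. Usp14, a ubiquitin-removing enzyme of the base, was at 5.95 RPKM in the first and 1.90 RPKM in the second library, and Zfand5, a proteasome activator, at 8.82 and 3.51 RPKM. Rad23b, a shuttle factor, was at 22.1 and 11.8 RPKM, and Txnl1, a thioredoxin of the base, at 32.6 and 17.3 RPKM. Pomp, at 355 and 384 RPKM, and Adrm1, a ubiquitin receptor of the base, at 16.4 and 17.6 RPKM, differed little. These genes were chosen after their values were seen. Among the 7 tested alpha ring genes, 4 differed by more than 1.5-fold between the libraries, all higher in the first. The 4 were Psma1, Psma2, Psma3 and Psma4.

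In Tie2 TRAP, 14 of 29 partner genes were more than 1.5-fold higher and 1 was lower than in CAG TRAP, against 58.8% and 16.4% of all genes.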
